A study of Caenorhabditis elegans with 18 samples.

Results

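The p38 mitogen-activated protein kinases of Caenorhabditis elegans and the kinases that switch them on were followed through small RNA (sRNA) and messenger RNA (mRNA) libraries of worms lacking germ granule proteins or the RNAi factor RDE-11. The 7 genes are pmk-1, pmk-2 and pmk-3, which encode the p38 kinases, sek-1 and mkk-4, which encode kinases one step above them, and nsy-1 and dlk-1, which encode the kinases at the top. They were taken by gene name, were chosen by measured values, namely the sRNA levels of all libraries and the mRNA levels of line 1 against N2, and were found in each of the 6 deposited tables, among 42400 genes listed in each of the 4 mixed-population tables and 42048 in each of the other 2. Because of that choice, the comparisons of meg-3 meg-4 lines and of rde-11 with N2 are given as descriptions, without p-values for these genes.

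A p38 cascade is a relay in which a top kinase phosphorylates a middle kinase, which then phosphorylates the p38 kinase. In C. elegans, NSY-1, SEK-1 and PMK-1 form the relay best known for defence against pathogens in the intestine, and PMK-2 works with PMK-1 in neurons. DLK-1, MKK-4 and PMK-3 form a second relay, known for synapse formation and for the regrowth of cut axons. Most endogenous sRNAs of worms are made by RNA-dependent RNA polymerases on mRNA templates and are bound by Argonaute proteins that can lower expression of the matching gene. MEG-3 and MEG-4 are disordered proteins that build the germ granules of the early embryo, and RDE-11 acts in the amplification of sRNAs after a trigger RNA.

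The 18 libraries came from whole worms in 9 groups of 2. Mixed populations grown on NA22 bacteria gave sRNA libraries of 4 meg-3 meg-4 double mutants, called lines 1 to 4, and of the wild-type strain N2. All 4 lines carry the meg-3 allele ax3055, joined to the meg-4 allele ax3052 in line 1, ax4310 in line 2, ax4311 in line 3 and ax4312 in line 4. For line 2 a further label field names another stage than the title, and the title was followed. Young mothers grown on HT115 bacteria with the L4440 plasmid gave mRNA libraries of line 1 and of N2, and sRNA libraries of rde-11(hj37) mutants and of N2. All worms were grown at 20 °C, and the labels name strain JH3475 for the line 1 mRNA worms, JH3672 for line 2, JH3673 for line 3 and JH3674 for line 4. The same pair of N2 libraries is the control in all 4 mixed tables, so the 4 line comparisons are not independent of each other. The labels do not say whether the libraries of a group came from separate cultures, so p-values measure only the spread between these libraries, which may be technical. Each line is a single genotype, and line 1 alone has mRNA data.

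The mixed sRNA libraries held 4.07 to 7.47 M reads (M, 1e6) in the lines and 4.21 and 3.82 M in N2. The mRNA libraries held 21.99 and 44.90 M in line 1 and 45.23 and 44.27 M in N2, and the young-mother sRNA libraries 4.06 and 4.93 M in rde-11 and 4.26 and 4.85 M in N2. As a check of the labels, meg-3 mRNA (listed as gei-12) averaged 0.298 in line 1 and 93.4 in N2 on the deposited scale, and meg-4 mRNA was listed at 0 in line 1 against a mean of 44.4 in N2. sRNAs of meg-4 were at 0 to 0.457 RPM in the 8 line libraries, against 35.1 and 49.2 RPM in N2, and no mRNA library of rde-11 mutants was analysed here. The rde-11 gene itself differed between the lines and N2. Its sRNA was higher, with log2 changes of 3.28, 2.06, 1.24 and 2.30 in lines 1 to 4. Its mRNA was lower in line 1 (log2 change -1.66). Levels are RPM, reads per 1e6 reads of the library, for sRNAs and the authors' scaled signal for mRNAs. A gene was tested where its mean over the 4 libraries of a comparison reached 10, and it was called where limma on log2(value + 1) gave a Benjamini-Hochberg adjusted p below 0.05 over all genes tested. The median log2 change of all genes tested was -0.34, -0.56, -0.59 and -0.77 in lines 1 to 4, -0.11 for mRNA and 0.16 in rde-11, so the RPM scale itself leans downward in the lines. A second scaling, TMM (trimmed mean of M values), brings these medians close to 0 and is given beside the member and list results it alters.

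sRNAs mapping to dlk-1 were nearly lost from all 4 meg-3 meg-4 lines, those of pmk-3 were clearly lower in line 1 and not called in the other lines, and those of pmk-2 stayed near the N2 level. The remaining 4 genes had too few sRNAs for the limma test there. Of the 3 genes tested in each line, dlk-1 and pmk-3 were called lower in line 1 and dlk-1 alone in lines 2, 3 and 4. Over all genes tested, 16.8, 58.6, 60.2 and 72.1% were called in lines 1 to 4, and the calls were mostly downward, at 13.8, 52.8, 54.4 and 66.7% of genes. Because the genes were chosen with these contrasts in view, nothing is read from their counts.

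**Figure D1:**
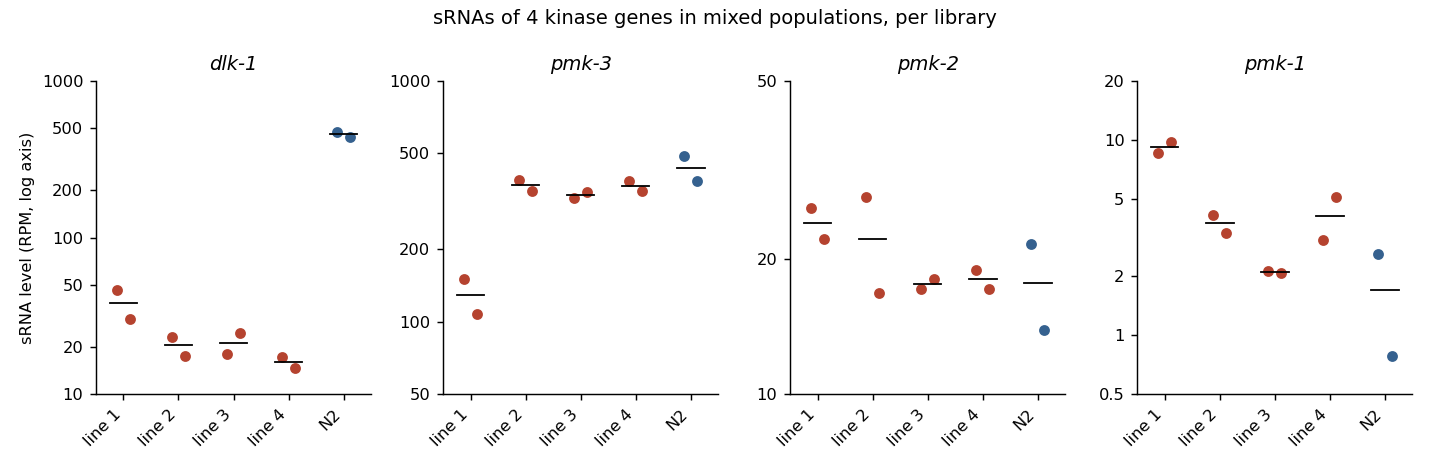
sRNA levels (RPM, log axes that differ between panels) of dlk-1, pmk-3, pmk-2 and pmk-1 in each mixed-population library of lines 1 to 4 (red) and N2 (blue). Points are libraries and black bars are means of 2 libraries. For dlk-1 the 8 mutant libraries lie at 14.6 to 46.5 RPM, under both N2 libraries, and for pmk-3 the line 1 libraries lie apart from all others.

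dlk-1, the gene for the top kinase of the axon regeneration relay, had 46.5 and 30.0 RPM of sRNA in line 1, 23.3 and 17.5 RPM in line 2, 18.1 and 24.5 RPM in line 3, and line 4 had 17.3 and 14.6 RPM, against 474 and 441 RPM in N2. Every one of the 8 mutant libraries was below both N2 libraries, as in 50.2% of the 6356 genes with a mean of at least 10 RPM over the 10 mixed libraries. In whole worms, fewer cells of a type and less RNA per cell cannot be told apart. On means, the dlk-1 level in lines 1 to 4 was 12, 22.4, 21.4 and 28.6 times lower than in N2. The log2 changes were -3.58 (SE 0.24), -4.43 (SE 0.22), -4.37 (SE 0.22) and -4.76 (SE 0.23). Counted from the most negative change of all genes tested, dlk-1 stood at places 26 of 6821, 10 of 6678, 13 of 6653 and 8 of 6590 in lines 1 to 4. After TMM scaling the log2 changes were -3.26, -3.87, -3.79 and -4.01 in lines 1 to 4, each well past the shift of the median.

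The residual dlk-1 sRNA was not the same in all lines. Line 1 kept a mean of 38.3 RPM, and both of its libraries were above all 6 libraries of lines 2 to 4, which averaged 19.2 ± 3.84 RPM (SD, n = 6). The RPM scale leans less downward in line 1, where the median log2 change of all genes tested was -0.34. In lines 2 to 4 it was -0.56, -0.59 and -0.77. The share of all genes with line 1 above lines 2 to 4 was not counted, and the difference was not tested. The gene mec-19, which overlaps dlk-1 in the WBcel235 annotation, had at most 0.524 RPM in any mixed library, and how the counting assigned reads of the shared stretch is not given in the sources used here. For comparison, 823 of 6480 genes tested in all 4 lines were called lower in every one (12.7%), and 278 of them (4.29%) after TMM scaling, with dlk-1 in both sets.

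Some genes of other functions tracked dlk-1 over the libraries, over a smaller range. Over the 10 mixed libraries, the sRNA profiles most alike to that of dlk-1 among 6356 genes were those of pxn-1, a peroxidasin gene (Pearson r 0.997), fmo-5, a flavin monooxygenase gene (0.992), R05G6.5 (0.991), num-1, a gene for a Numb protein (0.991), and pyk-1, a pyruvate kinase gene (0.989). pxn-1 sRNA averaged between 9.37 RPM (line 4) and 12.1 RPM (line 1) in the lines against 21.7 RPM in N2, a much smaller difference than that of dlk-1. pyk-1 sRNA averaged 43.7, 28.8, 31.6 and 31.7 RPM in lines 1 to 4 against 345 RPM in N2. These correlations describe 10 libraries that share 1 pair of N2 controls, and the gap between N2 and the lines sets most of each r. The other members were not alike to dlk-1: its r was 0.221 with pmk-3 and -0.135 with pmk-2.

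pmk-3, the gene for the p38 kinase at the end of the DLK-1 relay, had 151 and 107 RPM of sRNA in line 1, 387 and 349 RPM in line 2, 325 and 346 RPM in line 3, and line 4 had 385 and 348 RPM, against 487 and 383 RPM in N2. Line 1 was below both N2 libraries, as were 56.2% of genes tested, while lines 2 and 4 overlapped N2 and line 3 lay just under it, as 71.7% of genes did there. The log2 change was -1.76 (SE 0.23) in line 1, which made pmk-3 3.37 times lower there than in N2 and which was called under every alternative but the one with no filter on low values. In lines 2, 3 and 4 the log2 changes were -0.23 (SE 0.21), -0.36 (SE 0.21) and -0.24 (SE 0.23), none of them called, although without N2 replicate 2 pmk-3 was called lower in line 2 (-0.40) and line 3 (-0.54). After TMM scaling they turned to 0.34, 0.24 and 0.53 in lines 2 to 4, the last of which was called higher.

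The split between line 1 and the other lines was larger than the spread of libraries. Both pmk-3 values of line 1 were below all 6 values of lines 2 to 4, which averaged 357 ± 24.5 RPM (SD, n = 6), 2.77 times the mean of 129 ± 30.8 RPM in line 1 (SD, n = 2). Of 6356 genes, 3.74% had both line 1 libraries below all 6 of lines 2 to 4, and 0.629% also had a line 1 mean under 0.5 times that of the others. The profiles most alike to pmk-3 over the 10 libraries were those of the piRNA gene 21ur-2026 (r 0.901), the insulin-like gene ins-5 (0.898) and Y46H3C.6 (0.871), so its likeness to any gene was weaker than that of dlk-1. Genotype, growth and library preparation of line 1 cannot be told apart here, since the line is 1 group of 2 libraries.

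pmk-2, whose kinase acts beside PMK-1 in neurons, had 26.1 and 22.2 RPM of sRNA in line 1, 27.6 and 16.8 RPM in line 2, 17.2 and 18.1 RPM in line 3, and line 4 had 18.9 and 17.2 RPM, against 21.6 and 13.9 RPM in N2. Line 1 was just above both N2 libraries, as were 9.43% of genes tested, and the other lines overlapped N2. The log2 changes were 0.45 (SE 0.27), 0.30 (SE 0.25), 0.02 (SE 0.25) and 0.05 (SE 0.25) in lines 1 to 4, and none was called. After TMM scaling they were 0.76, 0.85, 0.59 and 0.78, with line 4 called higher, so pmk-2 sRNA lay above the median of all genes in every line.

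pmk-1, the gene for the p38 kinase of pathogen defence, had few sRNAs: 8.61 and 9.77 RPM in line 1, 4.14 and 3.32 RPM in line 2, 2.13 and 2.09 RPM in line 3, while line 4 had 3.08 and 5.11 RPM, against 2.61 and 0.785 RPM in N2. It was below the level needed for a limma test in every line. Line 1 was the highest group, 5.41-fold above N2 on means. The line 1 values rest on 35 and 40 reads and the N2 values on 11 and 3 reads, with exact 95% Poisson intervals, for counting error only, of 5.99 to 11.97 and 6.98 to 13.30 RPM in line 1 and 1.30 to 4.67 and 0.16 to 2.29 RPM in N2. edgeR on the recovered reads, which tests genes down to a mean of 1 RPM, called pmk-1 higher in line 1 (log2 change 2.72) and in no other line. It called 2.24, 6.94, 8.24 and 7.79% of all genes tested higher in lines 1 to 4.

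The sRNAs of the middle and top kinases of the defence relay, and of mkk-4, were sparse in all 10 mixed libraries. mkk-4, the middle kinase gene of the DLK-1 relay, ranged from 1.23 to 3.23 RPM over the 8 mutant libraries (median 2.14), against 4.27 and 2.09 RPM in N2. sek-1, the middle kinase gene of the defence relay, ranged from 0.951 to 3.75 RPM (median 2.10), against 2.61 and 2.09 RPM in N2. nsy-1, the top kinase gene of the defence relay, ranged from 5.48 to 10.9 RPM (median 7.30), against 7.12 and 8.64 RPM in N2. No line was called for any of these genes by edgeR. mkk-4 in line 1 had only 5 and 8 reads, against 18 and 8 reads in N2. nsy-1 overlaps wdr-83 and F59A6.13 in WBcel235, and the strand setting of the counting is not given in the sources used here, so its reads may be shared.

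The mRNAs of all 3 p38 genes were higher in young mothers of line 1 than in N2, while those of the 4 upstream kinase genes were close to the N2 level. Of 6 members tested, pmk-1, pmk-2 and pmk-3 were called higher and none lower, beside 14.5% of all 7616 genes called, 4.18% higher and 10.3% lower. The choice of these genes used this contrast too, so the counts are a description. Of the 3, pmk-2 reached the level of the test only through line 1.

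**Figure D2:**
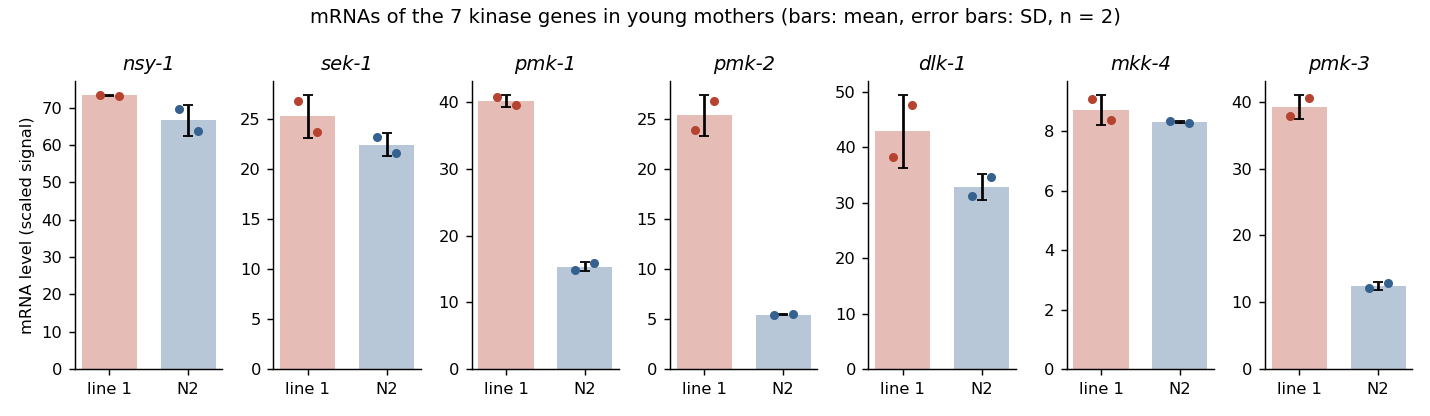
mRNA levels (authors' scaled signal, linear axes from 0 that differ between panels) of the 7 kinase genes in young mothers of line 1 (red) and N2 (blue). Bars are means, error bars the SD of 2 libraries and points the libraries. For the 3 pmk genes the line 1 bars stand at 25.4 to 40.2 and the N2 bars at 5.42 to 15.4, while the bars of the other genes are close to each other.

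pmk-2 mRNA was at 24 and 26.8 in line 1, against 5.40 and 5.45 in N2, a 4.68-fold difference (log2 2.04, SE 0.10). pmk-3 mRNA was at 37.9 and 40.5 in line 1, against 12.1 and 12.9 in N2, a 3.15-fold difference (log2 1.58, SE 0.085). pmk-1 mRNA was at 40.9 and 39.6 in line 1, against 14.9 and 15.9 in N2, a 2.62-fold difference (log2 1.33, SE 0.081). For each of the 3 genes the groups were far apart relative to the spread within them. Counted from the most positive change among 7616 genes, pmk-2 stood at place 3, pmk-3 at 6 and pmk-1 at 15. The pmk-2 mean of 5.42 in N2 is under the level of the limma test, so pmk-2 passed that filter only through line 1. Over the 10 alternatives, which include leaving out each library, the log2 changes were 1.96 to 2.29 for pmk-2, 1.53 to 1.72 for pmk-3 and 1.29 to 1.45 for pmk-1. The genes were chosen with these same libraries in view, so the ranges only describe how far the values depend on the processing.

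Upstream of the p38 genes the mRNA differences were small. dlk-1 mRNA was at 38.3 and 47.6 in line 1, against 31.3 and 34.6 in N2 (log2 0.37, SE 0.11), which was not called. It was called in the authors' deposited table, in the fit with a replicate block and without line 1 replicate 1. sek-1 mRNA was at 26.8 and 23.7 in line 1, against 23.2 and 21.6 in N2 (log2 0.16, SE 0.092). nsy-1 mRNA was at 73.5 and 73.2 in line 1, against 69.6 and 63.7 in N2 (log2 0.14, SE 0.068). mkk-4 mRNA was at 9.08 and 8.37 in line 1, against 8.35 and 8.28 in N2, below the level needed for the test. In each of these genes both line 1 libraries were above both N2 libraries, as they were in 20.1% of genes tested.

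The p38 genes are neighbours. In the WBcel235 annotation the protein-coding genes of this stretch of chromosome IV run islo-1, pmk-3, pmk-2, pmk-1, faah-2, and the 3 kinase genes are known as members of one operon, a group of genes transcribed together. The gene after pmk-1 was higher too: faah-2, a gene for a fatty acid amide hydrolase, had 143 and 97.2 in line 1, against 51.0 and 48.9 in N2 (log2 1.23, limma adjusted p = 0.00675). That call was lost without N2 replicate 1, without N2 replicate 2 and with no filter on low values, where the highest adjusted p was 0.15. islo-1, on the other side, had 6.14 and 6.83 in line 1, against 3.32 and 2.48 in N2, and was below the level for limma and called higher by edgeR. Of 2566 runs of 3 successive protein-coding genes that were all tested, 6 (0.234%) had all 3 mRNAs called higher, and the 2 runs with all 3 changes above 1 on the log2 scale (0.0779%) were pmk-3, pmk-2, pmk-1 and pmk-2, pmk-1, faah-2. The other 4 runs were of pud genes. The 2 runs with pmk genes share pmk-2 and pmk-1, and pmk-2 was tested only because of its level in line 1. The pmk genes were also chosen with these values in view, so the shares of runs are a description.

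**Figure D3:**
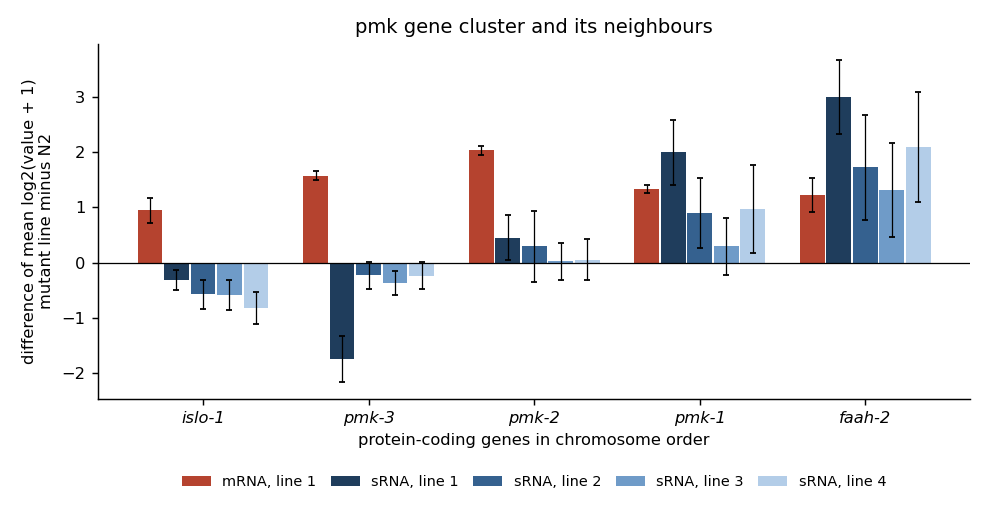
Difference of mean log2(value + 1), mutant minus N2, for the pmk genes and the protein-coding genes on each side, in chromosome order. Red bars are mRNA in line 1 and blue bars sRNA in lines 1 to 4 from dark to light, and error bars span the lowest and highest difference between any mutant and any N2 library. All 5 genes have mRNA bars above 0. The sRNA bars of every line lie under 0 at islo-1 and pmk-3, lowest at pmk-3 in line 1 (-1.76). They are not corrected for the downward lean of the RPM scale, where the median sRNA change of all genes tested was -0.34, -0.56, -0.59 and -0.77. After TMM scaling pmk-3 was at 0.34, 0.24 and 0.53 in lines 2 to 4. The sRNA bars lie above 0 at pmk-2, pmk-1 and faah-2.

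The sRNAs of the stretch did not move as a block. In line 1, sRNA was lower at pmk-3, near N2 at pmk-2 and higher at pmk-1 and faah-2. islo-1 sRNA, below the level for limma, was at 7.62 and 9.03 RPM in line 1, against 11.2 and 9.95 RPM in N2. By edgeR its log2 changes were -0.03, -0.06, -0.02 and -0.18 in lines 1 to 4, and none was called. faah-2 sRNA was at 48.4 and 48.1 RPM in line 1, 15.8 and 23.8 RPM in line 2, 12.5 and 16.4 RPM in line 3, and line 4 had 19.8 and 32.0 RPM, against 8.78 and 2.88 RPM in N2. The faah-2 log2 changes of 3.00, 1.73, 1.31 and 2.09 in lines 1 to 4 came with every mutant library above both N2 libraries. In line 1, 9.43% of genes tested had both mutant libraries above both N2 libraries, and this share was not counted in lines 2 to 4. All 4 lines share the same N2 libraries, in which faah-2 had 37 and 11 reads. The N2 mean of 5.83 RPM is under the level of the limma test, so faah-2 passed that filter only through the lines and its limma p-values are not given. edgeR, whose level both groups pass, called it higher in lines 1 to 4 (adjusted p 0.00131, 0.0125, 0.0237 and 0.00464). Of all genes tested by edgeR, 2.24, 6.94, 8.24 and 7.79% were called higher in these lines.

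In line 1, dlk-1 and pmk-3 both had fewer sRNAs in mixed populations, and pmk-3 alone of them had a called rise of mRNA in young mothers. Among 4720 genes tested for both RNAs in line 1, 35 (0.742%) had sRNA called lower and mRNA called higher, and pmk-3 is one of them. Of the 381 genes with sRNA called lower, 9.19% had mRNA called higher and 7.87% had it called lower, while 2.1% of all 4720 had mRNA called higher. The share of the 4720 with mRNA called lower was not counted. Over all 7616 genes tested for mRNA, 4.18% were called higher and 10.3% lower. The libraries differ in stage and in food, so the sRNA and mRNA values of a gene come from different worms. pmk-2 had the larger mRNA difference with sRNA close to N2, and dlk-1 had the larger sRNA difference with little at the mRNA.

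**Figure D4:**
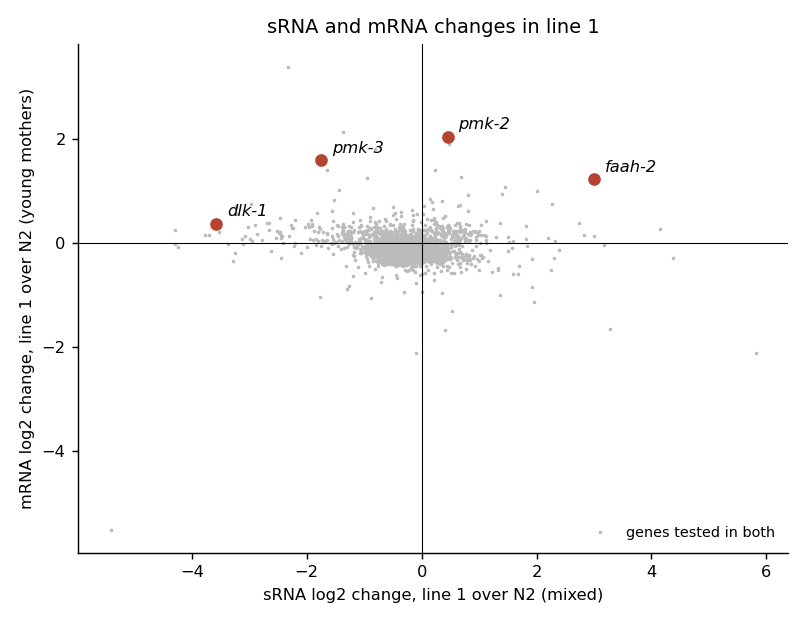
log2 change of sRNA (mixed populations, horizontal axis) and of mRNA (young mothers, vertical axis), line 1 over N2, for 4720 genes tested in both (grey). Red points are dlk-1, pmk-3, pmk-2 and the neighbour faah-2. pmk-3 lies at -1.76 and 1.58, dlk-1 at -3.58 and 0.37, and pmk-2 at 0.45 and 2.04.

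Tissue markers were read in the same mRNA libraries because p38 genes are active in intestine and neurons. Of 4 intestine markers (elt-2, ges-1, vit-2 and vit-6) none was called, and their summed level was 11038 and 13661 in line 1, against 9637 and 9711 in N2. Of 4 neuronal markers 2 were tested and none called, with sums of 107 and 101 in line 1, against 106 and 105 in N2, and none of 3 muscle markers was called. After TMM scaling the intestinal esterase gene ges-1 and the muscle myosin gene myo-3 were called higher, by 0.39 and 0.28 on the log2 scale. The 1 skin marker tested, of 3 listed, was not called either. gld-1 of the germ line (1 of 3 markers) and puf-5 of oocytes (1 of 3) were lower, with log2 changes of -0.33 and -0.40. The gld-1 call was lost after TMM scaling and by edgeR. The sperm phosphatase gene gsp-3 was higher by 0.36 (1 of 1 tested, with 4 listed), a call not made by edgeR. Over all genes tested, 4.18% were called higher and 10.3% lower. The summed oocyte and embryo markers were 4524 and 4558 in line 1, against 5433 and 5401 in N2, and the sperm markers 35.6 and 31.1 in line 1, against 28.3 and 25.3 in N2. These shifts are smaller than those of the pmk genes, and their part in the pmk differences was not tested.

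In rde-11 mutants the dlk-1 sRNAs stayed near the N2 level, those of pmk-3 were slightly lower and those of mkk-4 averaged 2.13 times the N2 level. Of 4 members tested, mkk-4, which reached the level of the test only through rde-11, was called higher and pmk-3 lower, where 26.8% of 7855 genes were called, 18.3% higher and 8.56% lower. The sRNA levels of these libraries were known when the genes were chosen, so these calls are a description too, and nothing is read from their count.

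**Figure D5:**
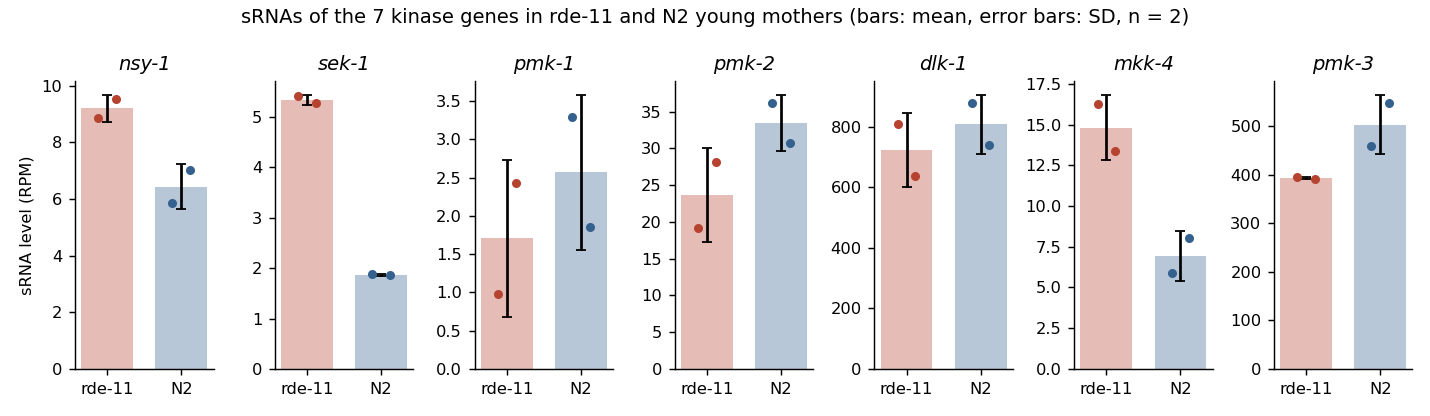
sRNA levels (RPM, linear axes from 0 that differ between panels) of the 7 kinase genes in young mothers of rde-11 (red) and N2 (blue). Bars are means, error bars the SD of 2 libraries and points the libraries. The groups do not overlap for nsy-1, sek-1 and mkk-4, where rde-11 is above N2 (as in 48.3% of genes tested), and for pmk-2 and pmk-3, where it is below N2 (19.3%). Of these genes, nsy-1 and sek-1 are below the level of the test, so the shares do not include them.

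dlk-1 sRNA was at 810 and 635 RPM in rde-11, against 877 and 739 RPM in N2, and the groups overlapped (log2 -0.17, SE 0.13). The change was not called, the sign turned to 0.0087 without rde-11 replicate 2, and with the replicate block dlk-1 was called lower. Set beside the lines, where at most 46.5 RPM remained against 474 and 441 RPM in N2, the rde-11 libraries kept most of the dlk-1 signal, although the 2 comparisons differ in stage and food and the difference between them was not tested. pmk-3 sRNA was at 395 and 392 RPM in rde-11, against 460 and 547 RPM in N2, with both rde-11 values below N2 (log2 -0.35, SE 0.11). Without each of the 4 libraries in turn that call was lost, while edgeR kept it.

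mkk-4 sRNA was at 16.2 and 13.4 RPM in rde-11, against 5.87 and 8.04 RPM in N2, a 2.13-fold difference with no overlap (log2 1.00, SE 0.23). The call was lost without N2 replicate 1 and in the authors' deposited table, and without rde-11 replicate 1 mkk-4 was below the level for a test. pmk-2 sRNA was at 19.2 and 28.2 RPM in rde-11, against 36.2 and 30.7 RPM in N2, and was not called (log2 -0.50, SE 0.20). It was called lower after TMM scaling and by edgeR.

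Below the level of the limma test, sek-1 sRNA was at 5.41 and 5.28 RPM in rde-11, against 1.88 and 1.85 RPM in N2, and edgeR called it higher (log2 1.37) where it called 13.4% of genes, 5.52% higher and 7.9% lower. Those values rest on 22 and 26 reads in rde-11, against 8 and 9 reads in N2. nsy-1 sRNA was at 8.86 and 9.54 RPM in rde-11, against 5.87 and 7.01 RPM in N2, and was not called by edgeR. pmk-1 sRNA was at 0.985 and 2.44 RPM in rde-11, against 3.29 and 1.85 RPM in N2, with 4 to 14 reads a library and overlapping groups.

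The other genes of the 2 relays were counted from lists of known partners. Of 9 listed DLK-1 partners, 5 were tested for sRNA in each line, and the calls were 1 higher in line 2, 2 lower in line 4 and none in lines 1 and 3. The tubulin gene tbb-6, known as a gene switched on by PMK-3, was the one in line 2, at a mean of 52.8 RPM against 29.1 RPM in N2, and that call was lost without either line 2 library. The 2 lower genes of line 4 were fsn-1 and uev-3, where 66.7% of all genes tested were called lower. Over all genes tested, 58.6% were called in line 2 and 52.8% were called lower there. After TMM scaling no partner was called lower in any line, and 0, 3, 2 and 2 were called higher in lines 1 to 4. Most TMM calls over all genes were upward in lines 2 to 4, so nothing is read from these counts. At the mRNA level 6 partners were tested, beside 4.18% of all genes called higher and 10.3% lower. tbb-6 was at 13.2 ± 1.17 in line 1 and 7.66 ± 0.307 in N2 (SD, n = 2 each), with a log2 change of 0.71. It reached the level of the limma test only through line 1, and edgeR called it higher (adjusted p 0.0181). The limma call was lost without either N2 library and with no filter on low values, and without either line 1 library tbb-6 was below the level for a test. fsn-1, for the F-box partner of the ubiquitin ligase RPM-1 that restrains DLK-1, fell by 0.27 on the log2 scale (limma adjusted p = 0.0341), a call lost in 7 of 10 alternatives, TMM scaling among them, where glo-4 and tbb-6 were called higher and no partner lower. Most mRNA calls over all genes were upward after TMM scaling. The median mRNA change of the 6 partners was 0.06, against -0.11 over all genes. In rde-11, 1 of 4 partners tested was called: cebp-1, for the transcription factor below DLK-1, had lower sRNA (log2 -0.57, limma adjusted p = 0.0266), a call lost in 4 of 10 alternatives. Of all genes tested in rde-11, 8.56% were called lower. After TMM scaling cebp-1 and rpm-1 were called lower.

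Of 15 listed PMK-1 partners, 9 were tested for sRNA in line 1 and 8 in each other line. In lines 1 to 4 the calls were 0, 2, 1 and 1 higher and 2, 5, 4 and 5 lower. Of all genes tested, 16.8, 58.6, 60.2 and 72.1% were called there in either direction, and 13.8, 52.8, 54.4 and 66.7% were called lower. tir-1, for the adaptor above NSY-1, was at 48.8 and 52.4 RPM on average in lines 2 and 3, against 26.3 RPM in N2 (log2 0.88 and 0.98). nsy-4, for a claudin-like protein of the NSY-1 relay, and egl-8, for a phospholipase C, were called lower in all 4 lines on the RPM scale, but after TMM scaling nsy-4 was called in line 4 alone and egl-8 in lines 3 and 4. The tir-1 call was lost without either line 2 library in line 2 and without line 3 replicate 1 in line 3. After TMM scaling the calls on the list were 0, 2, 2 and 2 higher and 0, 0, 1 and 2 lower in lines 1 to 4. Most TMM calls over all genes were upward in lines 2 to 4, so nothing is read from these counts. The median sRNA changes of the list were -0.18, -0.63, -0.73 and -0.82, against -0.34, -0.56, -0.59 and -0.77 over all genes. At the mRNA level 1 of 10 was called, the calcium kinase gene unc-43 (log2 0.29, limma adjusted p = 0.0369), a call lost in 4 of 10 alternatives. Of all genes tested for mRNA, 4.18% were called higher. After TMM scaling unc-43, vhp-1 and egl-8 were called higher, where most mRNA calls over all genes were upward. In rde-11 the sRNA of 3 of 8 was called higher, with tpa-1, for a protein kinase C, at a mean of 65.1 RPM in rde-11 and 20.5 RPM in N2 (log2 1.63, limma adjusted p = 0.000306), a call kept in all 10 alternatives. The other calls, on nsy-4 and skn-1, were lost in 6 and 7 of 10 alternatives, and after TMM scaling tpa-1 alone was called higher and tir-1 lower. Of all genes tested in rde-11, 18.3% were called higher on the RPM scale.

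The list of 10 genes known to be induced through PMK-1 held 5 with enough mRNA to test, and 3 were called higher and none lower in line 1, beside 4.18% of all genes called higher. The lysozyme gene lys-2 was at 227 and 239 in line 1, against 112 and 159 in N2 (log2 0.80, limma adjusted p = 0.0219). The lectin gene clec-67 had a log2 change of 0.62 (limma adjusted p = 0.0419) and C17H12.8 one of 0.90 (limma adjusted p = 0.0495). edgeR called lys-2 alone of these, and after TMM scaling lys-2 and clec-67 were called but not C17H12.8, whose call was lost in 6 of 10 alternatives. The lys-2 call was lost without N2 replicate 1 and with no filter on low values, and the other calls were also lost without N2 replicate 2. The median change of the 5 genes was 0.62, against -0.11 over all genes. Their sRNAs were mostly too few to test: 1 of the 10 was tested in line 1, where it was not called, and none in lines 2 to 4 or in rde-11.

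Other mitogen-activated kinase relays were counted in the same way. Among JNK-type genes, 3 were tested for sRNA in each line, and jip-1, for a scaffold protein of that relay, stood apart: it averaged 13.8, 13.5, 10.7 and 9.06 RPM in lines 1 to 4, against 95.6 RPM in N2. The jip-1 log2 changes of -2.69, -2.73, -3.04 and -3.26 were called lower in all 10 alternatives for every line. The JNK-type calls were 0 higher and 1 lower in line 1 and 0 higher and 3 lower in each other line, and after TMM scaling jip-1 alone was called lower. Of all genes tested for sRNA, 13.8, 52.8, 54.4 and 66.7% were called lower in lines 1 to 4, so little is read from such counts. In mRNA, 1 of 5 JNK-type genes was higher, mlk-1 (log2 0.29, limma adjusted p = 0.0486), and 1 lower, mek-1 (log2 -0.30, limma adjusted p = 0.0408). Among 10 ERK-type genes tested for mRNA, mpk-2, which reached the level of the test only through line 1, was called higher (log2 0.36, limma adjusted p = 0.0499) and the phosphatase gene lip-1 lower (log2 -0.42, limma adjusted p = 0.0386), and none of 4 Nemo-like genes was called. edgeR called none of these JNK-type or ERK-type mRNAs, and each of the 4 calls was lost in 5 to 7 of 10 alternatives. Of all genes tested for mRNA, 4.18% were called higher and 10.3% lower. For sRNA, 8 ERK-type genes were tested in each line, with none called higher and 1, 4, 5 and 5 called lower in lines 1 to 4, and 3 Nemo-like genes, with none higher and 0, 2, 1 and 2 lower. After TMM scaling the ERK-type calls were mpk-2 lower in line 1 and 1 gene higher in line 3, and no Nemo-like gene was called. In rde-11, none of 4 JNK-type genes was called, while 3 of 8 ERK-type and 2 of 4 Nemo-like genes were called higher and none lower. Of all genes tested in rde-11, 18.3% were called higher and 8.56% lower. After TMM scaling the rde-11 calls were 1 higher and 1 lower among ERK-type genes and 1 higher among Nemo-like genes. The largest mRNA change of any tested gene on the partner, JNK-type, ERK-type and Nemo-like lists was that of tbb-6, at 0.71. On the list of PMK-1 immune targets it was that of C17H12.8, at 0.90. The changes of pmk-1, pmk-2 and pmk-3 were 1.33, 2.04 and 1.58. Those 3 genes were chosen with the same values in view, so nothing is read from the gap.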

How the data were processed

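The authors deposited, per the file headers, RPM per gene for sRNA libraries, a scaled signal per gene for mRNA libraries, and their own log2 fold change, p-value and adjusted p-value. Per the labels' protocols, sRNA was treated with 5' polyphosphatase and mRNA was depleted of ribosomal RNA. The genome build was ce10 and the tools named were DESeq2, HTSeq, HISAT2, Bowtie2 and cutadapt, per the submitters' processing notes, with no versions. The annotation, filters and strand setting are not given in the sources used here, so reads of either strand may be in a value. Values were divided by the value of 1 read, and 100% came out whole within 0.02. limma 3.58.1 (R 4.3.3, mean trend) was run on log2(value + 1), which understates changes of low genes, per table, at a mean of at least 10. Alternatives were a pseudocount of 0.5, no filter, TMM, edgeR 4.0.16 quasi-likelihood on recovered reads at a mean of at least 1, a replicate block, each library left out and the authors' table. The fits were tested on simulated data. Members, lists (DLK-1 and PMK-1 partners, PMK-1 immune targets, JNK-type, ERK-type and Nemo-like genes, tissue markers) and the naming rule (all members, up to 4 called genes a list with the largest change, the 5 most alike profiles and neighbours) were chosen with earlier results of these data known. Coordinates are not printed, since WBcel235 is not the build of the files.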

Additional observations from a re-analysis of the deposited data

Results flagged for a closer look

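sek-1 sRNA moved to opposite sides of N2 in different lines: it averaged 3.21 RPM in line 4 and 1.16 RPM in line 3, against 2.61 and 2.09 RPM in the N2 libraries. Both line 4 libraries, at 2.68 and 3.75 RPM, were above both N2 libraries, and both line 3 libraries, at 1.37 and 0.951 RPM, were below them. The values rest on 20 and 22 reads in line 4, 9 and 5 reads in line 3 and 11 and 8 reads in N2. The exact 95% Poisson intervals were 0.63 to 2.60 and 0.31 to 2.22 RPM in line 3 and 1.64 to 4.14 and 2.35 to 5.67 RPM in line 4. Those of both lines overlap those of N2 (1.30 to 4.67 and 0.90 to 4.13 RPM). Of genes tested, which do not include sek-1, 71.7% had both line 3 libraries below both N2 libraries. The share above N2 in line 4 was not counted. The difference between the lines was not tested.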

How the results depend on the processing

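The loss of dlk-1 sRNA in all 4 lines and the higher mRNA of pmk-1, pmk-2 and pmk-3 kept direction and call in all 10 alternatives, with log2 changes of -3.88 to -3.26, -4.63 to -3.87, -4.58 to -3.79 and -4.87 to -4.01 for dlk-1 in lines 1 to 4 and 1.29 to 1.45, 1.96 to 2.29 and 1.53 to 1.72 for the mRNAs. The genes were chosen with these same libraries in view, so these ranges only describe how far the values depend on the processing. Genes called numbered 1146, 3915, 4004 and 4750 in lines 1 to 4, 1103 for mRNA and 2107 for rde-11. With no filter they were 236 in line 1 and 114 for mRNA. After TMM they were 740, 1522, 1693 and 1666 in the lines and 669 for mRNA, and by edgeR 1426, 1585 and 1563 in lines 2 to 4 and 529 for mRNA. The authors' deposited tables held 1187, 1216 and 1285 in lines 2 to 4 and 1075 for rde-11. TMM moved the share of calls that were higher from 18.1, 9.94, 9.69 and 7.49% to 45.3, 64.9, 66.1 and 67% in lines 1 to 4 and from 28.8 to 79.1% for mRNA. Leaving out each library in turn gave 611 to 2281, 926 to 4616, 808 to 4728 and 2054 to 4846 genes in lines 1 to 4, 23 to 1090 for mRNA and 572 to 1971 for rde-11. Members called ranged over 2 to 2, 1 to 2, 1 to 2 and 1 to 1 in the lines, 3 to 4 for mRNA and 0 to 2 for rde-11. Members called otherwise changed to 1 in line 1 with no filter and 3 by edgeR and in the deposited table (2 as reported), to 3 in line 4 after TMM (1), to 4 for mRNA in the deposited table and with the block (3), and in rde-11 to 3 with no filter and after TMM, 4 by edgeR and 1 in the deposited table (2). The pmk-3 sRNA change turned positive after TMM (0.34, 0.24 and 0.53 in lines 2 to 4), by edgeR (0.34, 0.24 and 0.49) and in the deposited tables (0.25, 0.16 and 0.41). The small pmk-2 sRNA change turned negative without N2 replicate 2 in lines 2 to 4 (-0.0019, -0.28 and -0.25), without line 2 replicate 1 (-0.042), without line 3 replicate 2 (-0.010) and without line 4 replicate 1 (-0.011), within -0.042 to 0.64, -0.28 to 0.32 and -0.25 to 0.36 over the libraries left out. That of dlk-1 in rde-11 turned to 0.0087 without rde-11 replicate 2, in a range of -0.34 to 0.0087. The cause of these reversals and moves was not tested, except that no filter adds genes to the tests and leaving out a library removes samples.

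The groups share replicate numbers, but the labels do not say that a number marks a shared batch and there are only 2 pairs, so the samples share only a number. Deviations of same-numbered libraries correlated at 0.515, 0.078, -0.125 and -0.214 in lines 1 to 4, 0.229 for mRNA and 0.404 for rde-11. With the replicate block, 2969 genes were called in line 1, 2497 for mRNA and 3936 for rde-11, with 4 members called in rde-11. Genes with few reads are limited by depth: 4 of 7 members were below the level of the limma test for sRNA in every line.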
